A study of Rattus norvegicus with 44 samples.

Results

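The dentate gyrus (DG) of ABT-263 treated older rats (AA, n = 11) was compared with that of young vehicle rats (YNG, n = 10), 21 of the 44 rats of the series, to describe what still differed from young tissue after the drug. Members were chosen by the group written for each rat in the deposited table of sample attributes, Old - ABT-263 or Young - Vehicle. All were male F344 rats and each gave 1 library from the DG of 1 hemisphere. The older rats were 12 months old per the labels, an age that the methods give for the start of treatment, and YNG rats were 6 months old. ABT-263 was given by oral gavage in repeated cycles of daily doses over several months, in a vehicle of Phosal 50 PG, PEG400 and ethanol, and the last doses preceded tissue collection by weeks. Older rats given only this vehicle (AV, n = 12) are shown beside AA, and their comparison with YNG shares the same 10 YNG rats. Because AA differed from YNG in age as well as in drug, age and ABT-263 cannot be told apart in the comparison itself.

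ABT-263 (navitoclax) binds BCL-2, BCL-XL and BCL-W, proteins that hold back the mitochondrial pathway of cell death. Senescent cells often depend on these proteins, so the drug can remove such cells, and it is then called a senolytic. The DG is the entry of the hippocampus: its granule cells receive cortical input, and new granule cells arise in it through adult life. Aging of the hippocampus is known for activation of microglia and complement and for loss of newborn neurons.

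Values were normalized reads, the deposited signal for each gene, and differences were taken on the scale of log2(value + 1). Each gene was tested with limma (two-sided) in 1 fit of the 4 groups. A gene is said to have risen or fallen where the unadjusted p was below 0.05, the threshold of the study, and the Benjamini-Hochberg adjusted p over all genes stands beside it. Estimated depth was 11392900 to 21185300 reads in AA and 10167400 to 24329800 in YNG, so the groups overlapped. Rats fell into 2 series by their numbers, series a (5 AA and 6 YNG rats) and series b (6 AA and 4 YNG rats), for which the labels name no batch. The granule cell gene Prox1 was present in every library (YNG 1704 to 3629.5, AA 609 to 3811). The library of AA rat 3988 held cerebellar transcripts, with a sum over 5 cerebellar markers of 11824 against at most 22.6 in any YNG rat. Transcripts of neighbouring regions (Nxph3 above 300) were high in AA rats 3984, 3988, 3996 and 4107 and in YNG rats V6 and V12. The lowest Prox1 value was that of AA rat 4107. The share of mitochondrially encoded transcripts was 7.11% to 12.5% in AA and 6.11% to 17.1% in YNG. YNG rats V10 and V11, both of series b, had shares of 6.16% and 6.11% and estimated depths of 10167400 and 11577700 reads. The series also differed in the share of values on 1 locus, AABR07000398.1. It was 0.977% to 1.60% in AA and 0.751% to 1.52% in YNG of series a. In series b it was 2.83% to 4.77% in AA and 4.18% to 11.1% in YNG, and the cause was not tested. These markers and libraries were picked out after the values were seen. As bulk tissue was measured, fewer cells of a type and less RNA per cell cannot be told apart.

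Class II major histocompatibility complex (MHC) genes, whose products present peptides to CD4+ T cells, showed the largest median rise of any list, and they are known to share promoter elements. The stretches below are the 100 bases before the annotated start of 4 of them from RefSeq (build GRCr8), with the letters GATTGG or their reverse complement, the core of the Y box, in capitals. They are shown because these genes moved together between AA and YNG.
RT1-Ba: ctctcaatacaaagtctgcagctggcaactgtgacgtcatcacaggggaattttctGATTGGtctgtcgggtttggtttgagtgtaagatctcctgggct
RT1-Bb: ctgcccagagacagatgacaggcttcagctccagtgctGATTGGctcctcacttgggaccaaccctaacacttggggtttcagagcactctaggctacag
RT1-Da: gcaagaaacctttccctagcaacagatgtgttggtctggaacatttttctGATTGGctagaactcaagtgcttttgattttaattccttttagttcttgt
RT1-Db1: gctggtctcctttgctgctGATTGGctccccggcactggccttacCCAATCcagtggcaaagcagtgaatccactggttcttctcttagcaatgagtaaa
The stretches lie at chr20:4576957-4577056 (plus strand), chr20:4604119-4604218 (minus strand), chr20:4515315-4515414 (plus strand) and chr20:4560163-4560262 (minus strand), all upstream of the gene. RT1-Ba also holds the letters TGACGTCA, in lower case above. GATTGG, searched on both strands in windows of 300 bases, was in 6 of 8 promoters matched for the class II list and in 15.3% of 27457 promoters. The list promoters are those of genes tested, and over the 10908 promoters matched for genes tested the share was 19.2%. The letters were chosen after the values were seen, and a match is a description of the sequence only.

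RT1-Db1, a class II beta chain, was 0 to 13.3 in YNG (median 2.36) and 1.94 to 296 in AA (median 13.8). AA rat 4070 stood far above the other AA rats, and 6 of 11 AA rats lay above every YNG rat, so the groups overlapped. It rose by a log2 difference of 2.20 ± 0.59 (SE, adjusted p = 0.0364). Cd74, the invariant chain that escorts class II molecules, was 24.6 to 108 in YNG (median 75.5) and 56.2 to 1691 in AA (median 159.8), with a log2 difference of 1.49 ± 0.46 (adjusted p = 0.0547). RT1-Ba, RT1-Bb and RT1-Da, further class II chains named after their values were seen, rose by 1.70, 1.62 and 1.41 on the log2 scale. In all, 5 of 9 tested members rose and none fell, with 1 past the adjusted threshold, and over all genes 12.6% rose and 14.1% fell. The other 4 members did not pass the test, with log2 differences from -0.24 to 0.25, the latter for the protease gene Ctss. The median of the list was 1.41, against 0.00067 over all genes. Within series a no member passed the test, and within series b 6 rose. Without AA rat 4070 the same number of members rose and the median was 1.05, but RT1-Db1 then had an adjusted p of 0.0507. RT1 genes resemble each other, so reads may be divided between them and single values are uncertain. In AV the same 5 genes had log2 differences from YNG of 2.98 for RT1-Db1, 2.18 for Cd74, 2.27 for RT1-Ba, 2.46 for RT1-Bb and 2.42 for RT1-Da. The summed value of the list had near-equal medians in AA (2227) and AV (2242), against 1784 in YNG. The highest sum was 4957 in AA, in rat 4070, and 9747 in AV, in rat 3999. No gene passed the adjusted threshold between AA and AV.

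**Figure D1:**
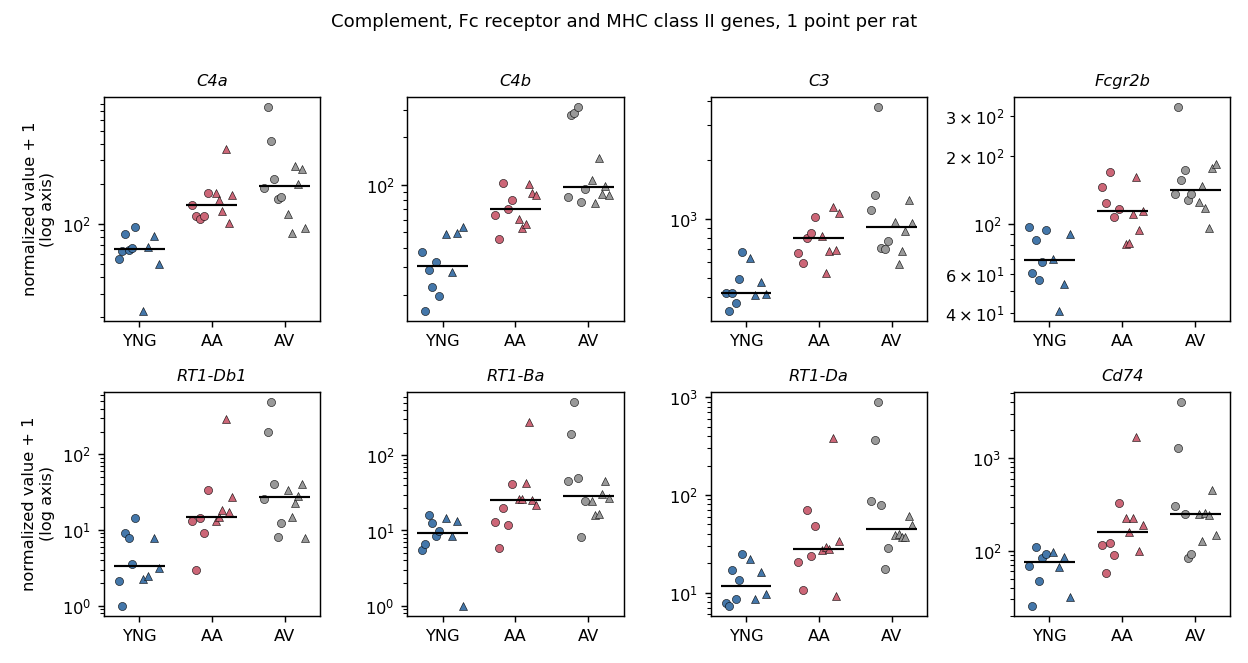
Normalized value + 1 (log axis) of 8 immune genes in each rat, for YNG (blue), AA (red) and AV (grey), with circles for series a, triangles for series b and a line at the group median. C4a is the gene shown in which every AA rat lies above every YNG rat, and AA rat 4070 is the highest AA point in the 4 class II panels.

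Across all genes, 4153 of 15598 (26.6%) differed between AA and YNG at the unadjusted threshold, with 1959 higher (12.6%) and 2194 lower (14.1%) in AA. At the adjusted threshold 601 genes (3.85%) differed, 241 higher (1.55%) and 360 lower (2.31%). The adjusted count rested on single rats: it ran from 28 without YNG rat V2 to 2359 without YNG rat V11, and 24 of the 601 genes were called in every one of the 21 fits without 1 rat. By the unadjusted p all 601 were called in each of these fits. The adjusted count was lower by over 1.5 times without AA rats 3983, 3984, 3988, 3996, 4035, 4069, 4077 and 4107 or YNG rats V1, V3, V4, V9 and V12 (30 to 377), and higher by over 1.5 times without AA rat 3985 (1966) or YNG rats V6 (1129) and V10 (1654). Of the genes named here, AABR07001734.1, Cdh1, Cyp2a1, Pcdhb5, Pcdhb4, Tubb2b, Col18a1, C4a, C4b, Fcgr2b, Usp51, Mfap4, LOC103689965, C1ql3 and Aqp9 were among the 24. The unadjusted call of C1qa, C1qbp, Sox9, Nnat, Fam163b and Bmf was lost in at least 1 of these fits, and that of the other genes named as called in none. Within series a, 4465 genes (28.6%) passed the unadjusted threshold, 1954 higher and 2511 lower, and 1567 (10.0%) the adjusted one. Within series b, 1928 (12.4%) passed the unadjusted threshold, 1122 higher and 806 lower, and 1 (0.00641%) the adjusted one. List counts within a series are read against these numbers. The 2 series share no rats: of the 1567 genes called in series a, 1036 (66.1%) had the same sign in series b, as did 57.6% of all genes. With the unadjusted p in series b required as well, 92 of them (5.87%) remained, against 7.01% of all genes. Without the 6 rats high in transcripts of neighbouring regions the counts were 1884 unadjusted (933 higher and 951 lower) and 13 adjusted. With the mitochondrial share as a covariate they were 2753 (1403 higher and 1350 lower) and 63. List counts in these 2 fits are read against these numbers out of 15598, which were smaller than those of all rats. For comparison within the older rats, 703 genes (4.51%) differed between AA and AV at the unadjusted threshold and 0 (0%) at the adjusted one in limma, the only tool run.

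**Figure D2:**
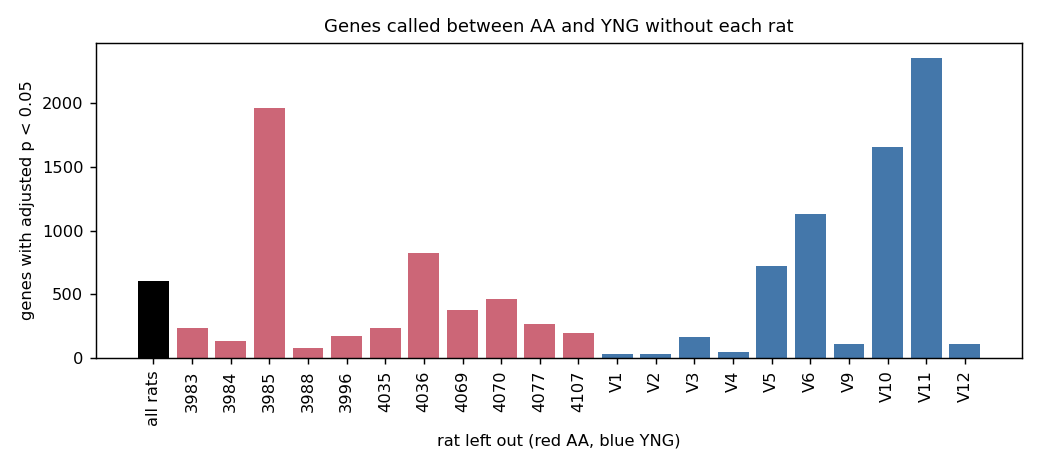
Number of genes with an adjusted p below 0.05 between AA and YNG with all 21 rats (black, 601 genes) and with each AA rat (red) or YNG rat (blue) left out. The count is lowest without V2 (28) and highest without V11 (2359).

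The gene with the smallest p was AABR07001734.1, a locus with no gene name in the files. It was 0 to 8.28 in YNG (median 3.38) and 25.2 to 106 in AA (median 36.4), a log2 difference of 3.59 ± 0.31 (adjusted p = 4.47e-11). All 11 AA rats were above every YNG rat. Groups without overlap were found for 5 genes (0.0321%): AABR07001734.1, C4a and LOC103689965 were higher in AA, and C1ql3 and Aqp9 were lower. The last 3 were named after their values were seen. LOC103689965 differed by 1.06, C1ql3, a synaptic organizer related to complement C1q, by -0.94, and Aqp9, a channel for water and glycerol, by -0.71 on the log2 scale.

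Cdh1, which encodes the epithelial adhesion protein E-cadherin, was 0 to 21.4 in YNG (median 3.21) and 15.5 to 67.8 in AA (median 22.8). YNG rat V6 was the highest of its group, and 8 of 11 AA rats exceeded it. The log2 difference was 2.79 ± 0.38 (adjusted p = 2.12e-05), and without the 6 rats high in transcripts of neighbouring regions it was 3.01. Cyp2a1, a cytochrome P450, was 1.504 to 9.79 in YNG and 5.47 to 28.02 in AA (medians 4.23 and 16.4), a rise of 1.77 ± 0.26 (adjusted p = 7.78e-05). Both genes also lay above YNG in AV, by 3.25 for Cdh1 and 2.10 for Cyp2a1. Tubb2b, a beta-tubulin of growing neurons, was 3049.7 to 4491 in YNG (median 3734) and 1923 to 3210.2 in AA (median 2448). It fell, with a log2 difference of -0.56 ± 0.09 (adjusted p = 0.000365), with 9 of 11 AA rats below every YNG rat.

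The other large rises were mixed in kind. LOC102556337 rose by 1.44 ± 0.42 (adjusted p = 0.0462), Apold1, an endothelial gene induced by activity, by 1.39 ± 0.41 (adjusted p = 0.0491), and Slc9a3, a sodium and proton exchanger, by 1.39 ± 0.31 (adjusted p = 0.0217). Myo5c, an unconventional myosin, rose by 1.27 and Pla2g3, a secreted phospholipase, by 1.202 on the log2 scale. For Slc9a3 the values were 11.2 to 76.5 in YNG (median 32.3) and 44.9 to 255 in AA (median 72.6), so the groups overlapped. A 7SK identifier rose by 1.33, but several identifiers carry the name of this small nuclear RNA and share sequence, so this value is uncertain. Apold1 differed by 2.34 in series a and by 0.23 in series b, and the interaction did not pass the adjusted threshold.

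Among the large falls, Usp51, a deubiquitinase, was 12.5 to 86.3 in YNG (median 42.96) and 6.85 to 25.8 in AA (median 14.9). Its log2 difference was -1.57 ± 0.32 (adjusted p = 0.0112), and 5 of 11 AA rats were below every YNG rat. Fst, the secreted activin antagonist follistatin, was 44.2 to 105 in YNG (median 66.5) and 4.38 to 72.6 in AA (median 34.6), a log2 difference of -1.25 ± 0.32 (adjusted p = 0.0317). Mfap4, a protein of the extracellular matrix, differed by -1.23 ± 0.25 (adjusted p = 0.0111). The other falls of this size were the ribosomal genes Rps24 (-1.35), Rps21 (-1.33) and Rpl30 (-1.25) and the unnamed loci AABR07016640.1 (-1.44), AABR07071482.1 (-1.39), AABR07014996.1 (-1.26) and AABR07037343.1 (-1.25).

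**Figure D3:**
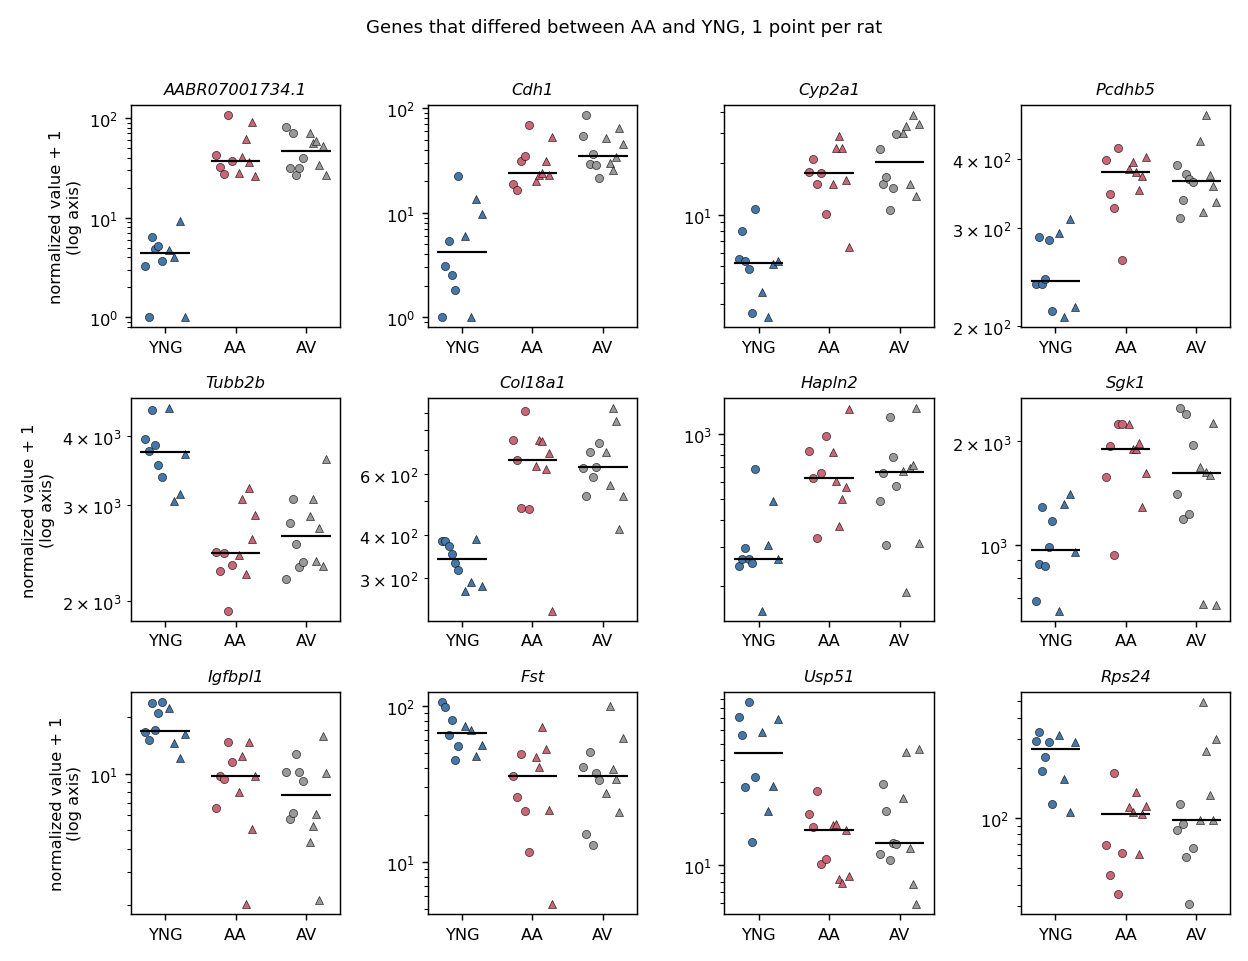
Normalized value + 1 (log axis) of 12 genes in each YNG (blue), AA (red) and AV (grey) rat, with circles for series a, triangles for series b and a line at the group median. AABR07001734.1 separates all AA from all YNG rats, while the other 11 genes overlap in at least 1 rat.

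Of the complement genes, whose products tag cells and synapses for uptake, C4a, C4b and C3 were above YNG in AA at the adjusted threshold. C4a was 21.3 to 93.7 in YNG (median 64.0) and 100.2 to 366 in AA (median 138), a log2 difference of 1.26 ± 0.27 (adjusted p = 0.0178). Its groups did not overlap. C4b was 14.9 to 53.2 in YNG and 44.03 to 102 in AA (medians 29.6 and 69.4), and rose by 1.19 ± 0.23 (adjusted p = 0.0105). C4a and C4b are near-identical copies, so the division of reads between them is uncertain. C3, the central component on which the pathways converge, was 339 to 675 in YNG and 527 to 1155 in AA (medians 419 and 797), and rose by 0.79 ± 0.19 (adjusted p = 0.025). With C2 (0.74) and C1qa (0.37), 5 of 25 members rose, 3 of them at the adjusted threshold, and C1qbp fell (-0.25), while 19 did not pass the test. The median was 0.19, with 5 rises in series a and 6 in series b. In AV the differences from YNG were 1.99 for C4b, 1.72 for C4a and 1.12 for C3.

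Genes of the microglial lists moved unevenly, and the cells behind each change were not tested. Fcgr2b, the inhibitory Fc gamma receptor, was 39.99 to 96.1 in YNG (median 67.6) and 80.1 to 168 in AA (median 113), and 8 of 11 AA rats were above every YNG rat. The log2 difference was 0.74 ± 0.16 (adjusted p = 0.0184). Apoe, the main lipid carrier of the brain and a member of the activated list, fell, with a log2 difference of -0.45 ± 0.16 (adjusted p = 0.0742). In the list of activated phagocytic microglia 6 of 34 members rose and 2 fell, with a median of 0.085. Without each rat in turn the number that rose ran from 3 (without AA rat 4107) to 7. Of the homeostatic list 3 of 22 rose and 2 fell. Sall1, a transcription factor of microglial identity, rose by 0.53 ± 0.12 (adjusted p = 0.0241), and Slc2a5, a fructose transporter, by 0.57 ± 0.17 (adjusted p = 0.0478).

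Other immune lists lay near or below the background shares. The letters GAAANNGAA, an interferon response element, were in 25 of 36 promoters matched for the interferon list and in 9.5% of all 27457. Over the 10908 promoters matched for genes tested the share was 6.96%. Of the interferon response 4 of 46 members rose and 3 fell (median 0.037). Ifit2, an inhibitor of viral translation, rose by 0.51 ± 0.14 (adjusted p = 0.036), while Gbp5, a guanylate-binding protein, fell, with a log2 difference of -0.71 ± 0.24 (adjusted p = 0.0633). In series a 9 members rose and 2 fell (median 0.25), and in series b 2 rose and 8 fell (median -0.20). For MHC class I and antigen processing 1 of 25 rose, the peptide transporter Tap2 (0.43, adjusted p = 0.0371), and RT1-S3 fell (-0.26). No T and NK cell marker of 10 tested passed the test in either direction. Their summed value was 109.8 to 274 in YNG, 135 to 334 in AA and 150.04 to 2141 in AV. Of the astrocyte reactivity list 4 of 28 rose, led by Osmr, the oncostatin M receptor (1.18, adjusted p = 0.0344), and Aspg (0.54, adjusted p = 0.0849), and Sox9 fell (-0.34).

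Myelin genes that passed the test were all higher in AA. Of 30 members 10 rose and none fell, 28 had a positive difference, and the median was 0.28 (0.39 with 12 rises in series a, 0.25 with 3 in series b). Hapln2, a link protein at nodes of Ranvier, was 152 to 685 in YNG (median 264) and 331 to 1292 in AA (median 627). It rose by 1.11 ± 0.25 (adjusted p = 0.0232) although the groups overlapped. Fa2h, which makes hydroxylated myelin lipids, rose by 0.49 ± 0.16 (adjusted p = 0.0597). The count was 6 to 15 without each rat in turn, 6 without AA rat 3985, and 4 without the 6 rats high in transcripts of neighbouring regions, with a median then of 0.21. With the mitochondrial share as a covariate 23 rose and none fell (median 0.45). Over all 15598 genes 1403 rose in that fit and 933 without the 6 rats. In the oligodendrocyte precursor list none rose and 2 of 20 fell: C1ql1, a C1q-related synaptic ligand (-0.56, adjusted p = 0.0331), and Cacng4, an AMPA receptor auxiliary subunit (-0.33, adjusted p = 0.0513).

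Matrix genes of the collagen and basement membrane list rose in 17 and fell in 3 of 47 members (median 0.26). Col18a1, a basement membrane collagen, was 275 to 388 in YNG (median 340.5) and 241 to 906 in AA (median 655). Of 11 AA rats 10 were above every YNG rat and the remaining one, rat 4107, was below all of them. The log2 difference was 0.84 ± 0.14 (adjusted p = 0.000865), 0.83 in series a and 0.91 in series b. Col5a2, a fibrillar collagen, rose by 0.76 ± 0.21 (adjusted p = 0.0382). The list median was 0.48 in series a, where 20 rose, and 0.075 in series b, where 5 rose, and 5 members rose without the 6 rats and 11 without YNG rat V9.

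Vascular genes gave unlike values in the 2 series. Of 17 endothelial markers 6 rose and none fell (median 0.25), but in series a 14 rose (median 0.56) and in series b none rose and 3 fell (median -0.14). Flt1, a VEGF receptor, rose by 0.76 ± 0.22 (adjusted p = 0.0479), with 1.51 in series a and -0.25 in series b (interaction adjusted p = 0.00391). Cldn5, the tight junction protein claudin-5, was 424 to 1881 in YNG and 736 to 1611 in AA, and its log2 difference of 0.25 ± 0.21 did not pass the test (p = 0.234). Eng, a TGF-beta co-receptor, differed by 0.30 ± 0.16 (p = 0.0713), and Tgfb1 by -0.08 ± 0.18 (p = 0.658). Acvrl1, the endothelial receptor ALK1, rose by 0.61 ± 0.20 (adjusted p = 0.0618), and Id1, a target of BMP signals, by 0.50 ± 0.17 (adjusted p = 0.0695). In AV the same genes differed from YNG by 0.65 (Cldn5), 0.66 (Eng), 0.41 (Tgfb1), 0.99 (Acvrl1) and 0.80 (Id1). The summed endothelial markers were 5737 to 12334 in YNG (median 7437) and 8134 to 11134 in AA (median 8968). They were 8085 to 27462 in AV (median 10305), highest in AV rat 3989, and the part of this rat in the AV values was not tested. No gene passed the adjusted threshold between AA and AV. In the TGF-beta and BMP list 10 of 56 rose and 4 fell, with Fst falling as above and Acvr1b, a type I activin receptor, rising by 0.21 (adjusted p = 0.0478). Rgs5, the 1 pericyte and smooth muscle marker that rose, differed by 0.81, 1.54 in series a and -0.16 in series b (interaction adjusted p = 0.000355).

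**Figure D4:**
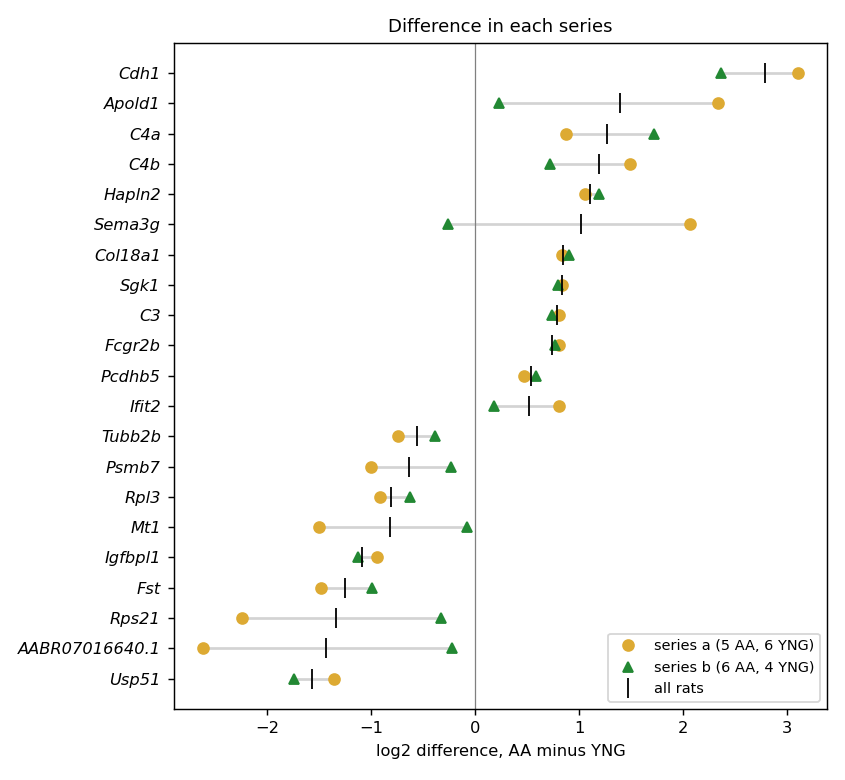
Log2 difference between AA and YNG of 21 named genes within series a (yellow circles), within series b (green triangles) and over all rats (black ticks). Col18a1, Hapln2, Sgk1, C3 and Fcgr2b lie close in both series, and Sema3g is 2.06 in series a and -0.26 in series b.

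A few genes of newborn neurons were lower in AA, at a share near the background. Igfbpl1, expressed in neuronal progenitors, was 11.0 to 23.1 in YNG (median 15.9) and 1.04 to 13.7 in AA (median 8.72), with 8 of 11 AA rats below every YNG rat. Its log2 difference was -1.08 ± 0.29 (adjusted p = 0.037). Dcx, the microtubule protein doublecortin of migrating neurons, was 124 to 239 in YNG (median 189) and 114 to 172 in AA (median 136), and fell, with a log2 difference of -0.38 ± 0.11 (adjusted p = 0.0478). In the neurogenesis list 4 of 33 members fell and none rose, the others being Fabp7 (-0.48) and Nnat (-0.51), and 12.1% is close to the 14.1% of all genes that fell. The AV differences were -1.30 for Igfbpl1 and -0.46 for Dcx. The summed value of the granule cell markers was 20810.5 to 28524 in YNG and 8141 to 30310.2 in AA, lowest in AA rat 4107. Of 11 granule cell markers 3 fell (27.3%, against 14.1% of all genes), Calb1 (-0.49), C1ql2 (-0.52) and Fam163b (-0.32), and none rose. Without rat 4107 C1ql2 passed the test in limma at an unadjusted p of 0.0448, and Fam163b did not (p = 0.0717). Without the 6 rats, which include rat 4107, 1 fell and 1 rose. With the mitochondrial share as a covariate 7 fell and none rose (median -0.38).

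Interneuron markers rose in 7 of 18 and fell in none (median 0.33), with medians of 0.25 and 0.26 in series a and b. Gad2, a GABA-synthesizing enzyme, was 1419.6 to 2229 in YNG (median 1735) and 1990.0 to 2746 in AA (median 2281), and rose by 0.36 ± 0.11 (adjusted p = 0.0494). The peptide gene Sst (0.42) and Reln, which encodes reelin (0.55), also rose. Without AA rat 3988 Sst was at 0.45 and Reln at 0.37. The summed value of the list was highest in AA rat 3988, whose library held cerebellar transcripts, and without the 6 rats 3 rose. In the list of GABA synthesis and receptors 6 of 26 rose (23.1%, against 12.6% of all genes) and 4 fell (15.4%, against 14.1%). The largest fall was that of Gabrb1, a GABA-A receptor subunit (-0.71 ± 0.20, adjusted p = 0.0406). Clustered protocadherins, surface proteins that give neurons their identity, rose in 8 and fell in 1 of 37 (10 rises and none lower in series a, 4 rises and 5 falls in series b). Pcdhb5 was 207 to 310.5 in YNG and 263 to 417 in AA (medians 239.9 and 378), with 10 of 11 AA rats above every YNG rat, and rose by 0.54 ± 0.083 (adjusted p = 0.000249). Pcdhb4 rose by 0.74 ± 0.15 (adjusted p = 0.0122). As these genes resemble each other, reads may be divided between them.

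Axon guidance genes rose in 15 of 71 (21.1%, against 12.6% of all genes) and fell in 5 (7.0%, against 14.1%). In series a 18 rose and in series b 6. The list was led by the adhesion molecule L1cam (0.37 ± 0.088, adjusted p = 0.025) and the semaphorin Sema3g (1.01 ± 0.25, adjusted p = 0.0265). Sema3g differed by 2.06 in series a and -0.26 in series b (interaction adjusted p = 0.000438). Synaptic lists lay near the background. Presynaptic release genes rose in 8 and fell in 3 of 59, among them Rims3, a protein of the active zone (0.75). Glutamate receptor and scaffold genes rose in 6 and fell in 7 of 55, including the scaffold gene Dlgap1 (-0.28) and the NMDA receptor subunit Grin2b (-0.38), both lower. Without YNG rat V1 only 1 glutamate gene rose, and without each rat in turn the presynaptic rises ran from 5 (without AA rat 3988) to 16. Potassium channels rose in 7 and fell in 5 of 66, with Kcnc2 (0.37) and Kcnc1 (0.35) leading. Without AA rat 3988 Kcnc2 was at 0.36 and Kcnc1 at 0.24. Calcium genes rose in 4 and fell in 6 of 47, among the falls the calcium buffer gene Calb1 given above.

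Immediate early genes mostly rose where they passed the test. Neurons switch on many of them within minutes of activity, but the list also holds genes with other inducers, such as Sgk1 and Klf2. The cells behind these rises were not tested. Of 48 members 18 rose (37.5%, against 12.6% of all genes) and 2 fell (4.2%, against 14.1%), with a median of 0.26. Series a had 10 rises (median 0.26) and series b 12 (median 0.28). Over all 15598 genes 1954 rose in series a and 1122 in series b. Sgk1, a stress- and glucocorticoid-induced kinase, was 642 to 1403 in YNG (median 968) and 930.1 to 2255 in AA (median 1903). Of 11 AA rats 9 exceeded every YNG rat, and the log2 difference was 0.83 ± 0.19 (adjusted p = 0.0233). Klf2, a transcription factor induced by blood flow, rose by 0.92 ± 0.25 (adjusted p = 0.0392). Npas4 (1.08) and the phosphatase gene Dusp1 (0.77) also passed the adjusted threshold, while Klf6 (-0.45) and Pcsk1 (-0.31) fell. Without the 6 rats 12 members rose and 1 fell. The letters TGACGTCA, the cAMP response element, were in 7 of 36 promoters matched for the list and in 1.91% of all 27457 promoters. Over the 10908 promoters matched for genes tested the share was 3.03%. Dusp1 is one of the 7 and is shown because it rose at the adjusted threshold, with the element in capitals, in a stretch of 100 bases that ends short of its annotated start, which lies 124 bases after the first base of the element (chr10:17184703-17184802, plus strand, RefSeq GRCr8).
Dusp1: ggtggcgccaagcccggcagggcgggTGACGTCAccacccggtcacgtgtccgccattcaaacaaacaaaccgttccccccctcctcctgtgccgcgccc
Circadian clock genes rose in 9 of 23 (39.1%, against 12.6% of all genes) and fell in none, with Per2 (0.47 ± 0.15, adjusted p = 0.0552) and the kinase gene Csnk1e (0.20) leading. None passed the adjusted threshold. Only 1 rose in series b, against 7 in series a, and 2 rose without the 6 rats.

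Genes of protein synthesis and of the proteasome that passed the test over all rats were all lower. Of 81 cytosolic ribosomal protein genes 64 fell and none rose (median -0.60), 19 of them at the adjusted threshold. In series a 58 fell and 1 rose (median -0.85), and in series b 7 fell (median -0.32). Their summed value was 103220 to 366199 in YNG and 126163 to 266623 in AA, so the groups overlapped, and YNG rats V10 and V11 were among the low values. Rpl3 was 6762 to 20364 in YNG (median 15500.2) and 5977 to 13053 in AA (median 7156), a log2 difference of -0.81 ± 0.20 (adjusted p = 0.0256). Rps24 was 109 to 328 in YNG and 34.2 to 186 in AA (medians 258 and 104), with 7 of 11 AA rats below every YNG rat. Ribosomal genes have many processed copies, so single values are uncertain. Translation factors fell in 26 of 47, among them Eif3i (-0.66, adjusted p = 0.0217) and Eif2b5 (-0.36, adjusted p = 0.0225), and proteasome subunits, which degrade proteins, in 23 of 39, among them Psmb7 (-0.64, adjusted p = 0.037) and Psmc5 (-0.69, adjusted p = 0.037). No member of either list rose over all rats. Falls in series a and b numbered 24 and 5 for translation factors (medians -0.34 and -0.19) and 26 and 1 for proteasome subunits (medians -0.41 and -0.043), with 2 and 3 rises in series b. Chaperones fell in 20 (19 in series a, 2 in series b, 6 without the 6 rats) and rose in 2 of 62, led by the chaperonin subunit Cct5 (-0.55) and prefoldin Pfdn5 (-0.82).

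Respiratory genes that passed the test over all rats were all lower. Of 78 nuclear genes of the respiratory chain and ATP synthase 50 fell and none rose (median -0.34), with Ndufb3 (-0.69) and Atp5pd (-0.67) at the smallest p. In series a 63 fell (median -0.60), whereas in series b none fell and 4 rose (median -0.058). Of 13 mitochondrially encoded genes 11 fell, none at the adjusted threshold and none within series b, with a median of -0.67 (-0.71 in series a and -0.64 in series b). Mt-nd1 was 56705 to 285896 in YNG and 63312 to 126557 in AA, and Mt-nd4l 6799 to 28079 and 5551 to 12992. Mitochondrial ribosomal proteins fell in 26 and rose in 1 of 72, led by Mrpl18 (-0.74) and Mrpl13 (-0.63). Within series a 34 fell and none rose, and within series b 1 fell and 7 rose, where the median turned to 0.0046. Without the 6 rats 10 fell. The mitochondrial share of the libraries, 12.9% at the median in YNG and 8.51% in AA, moved with these lists. With that share as a covariate the falls numbered 27 cytosolic ribosomal, 13 nuclear respiratory, 13 translation factor and 11 proteasome genes. Leaving out each rat in turn gave 56 to 70, 44 to 58, 25 to 30 and 19 to 25. Without the 6 rats they were 31, 13, 15 and 9. Over all 15598 genes 1350 fell with the mitochondrial share as a covariate and 951 without the 6 rats, against 2194 with all rats. The part of the mitochondrial share in the falls of these lists was otherwise not tested.

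**Figure D5:**
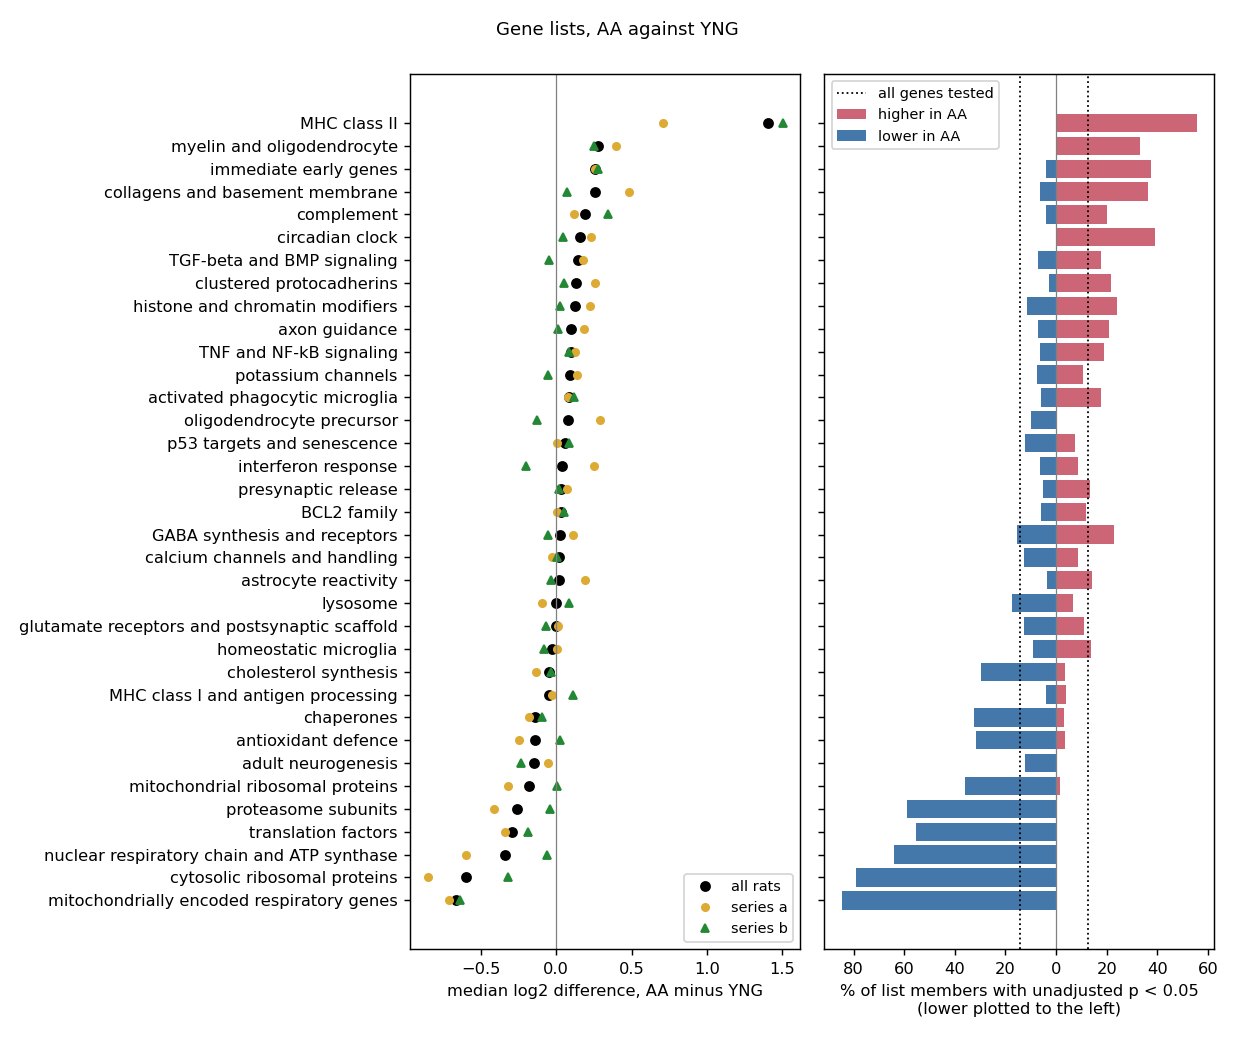
Left, median log2 difference between AA and YNG of each pathway list over all rats (black), series a (yellow) and series b (green). Right, percent of the list's members that rose (red) or fell (blue) at the unadjusted threshold, with dotted lines at the shares over all genes (12.6% and 14.1%); the 6 lists with the lowest medians are those of ribosomes, respiration, translation and the proteasome.

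None of the 3 genes for the targets of ABT-263 passed the test between AA and YNG. Bcl2 was 19.6 to 40.2 in YNG and 12.2 to 40.7 in AA, with a log2 difference of -0.25 ± 0.20 (p = 0.214). Bcl2l1, which encodes BCL-XL, differed by 0.12 ± 0.082 (p = 0.161) and Bcl2l2, which encodes BCL-W, by 0.037 ± 0.047 (p = 0.429). In the BCL2 family 2 of 17 members rose (11.8%, against 12.6% of all genes), the pro-death genes Pmaip1 (0.78) and Bmf (0.36). Bnip3l, a receptor for removal of mitochondria, fell (-0.34, adjusted p = 0.0494), 5.9% against 14.1% of all genes. Bmf was called in 10 of the 21 fits without 1 rat and was at -0.0034 in series b. Cdkn1a, which encodes the cell cycle inhibitor p21, was 31.4 to 91.6 in YNG and 32.6 to 121 in AA, a log2 difference of 0.29 ± 0.25 (p = 0.245), beside 0.85 in AV. Of p53 targets and senescence genes 3 of 41 rose (7.3%) and 5 fell (12.2%), both below the shares of all genes (12.6% and 14.1%). Among them Ccng1, a p53 target, was at -0.61 (adjusted p = 0.0491) and the cell cycle inhibitor gene Cdkn1b at 0.29 (adjusted p = 0.0547). Mcl1 and Cdkn2a were not among the genes tested.

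Lists of signaling, metabolism and chromatin moved in both directions. TNF and NF-kB genes rose in 12 and fell in 4 of 63 (13 rises in series a, 1 in series b), with the kinase genes Map3k8 (1.02) and Map2k6 (-0.49) at the smallest p. Antioxidant genes fell in 17 of 54 (11 without YNG rat V1) and rose in 2, Txnrd1 (0.43) and Msrb3 (0.61). Their direction did not hold in series b, with 1 fall and 8 rises (median 0.026) against 21 falls and 4 rises in series a. Without the 6 rats 3 fell and 3 rose, and with the mitochondrial share 5 fell and 8 rose. Cholesterol synthesis genes fell in 8 of 27 (8 in series a, 1 in series b, 3 without the 6 rats), among them Tm7sf2 (-0.51), and the regulator Srebf2 rose (0.39). Lysosomal genes rose in 4 and fell in 10 of 58, with the hydrolase genes Gaa (0.27) and Idua (0.62) leading. With the mitochondrial share 14 lysosomal genes rose and 1 fell, and in series b 7 rose and 2 fell. Histone and chromatin modifiers rose in 19 and fell in 9 of 79, where the remodeler Smarca4 fell (-0.36, adjusted p = 0.0232) and the methyltransferase gene Setd1a rose (0.31). In series a 22 rose and 9 fell, in series b 2 rose and 8 fell, and 5 rose and 4 fell both without the 6 rats and with the mitochondrial share.

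Some genes that differed from YNG in AA also lay away from AV, with no gene past the adjusted threshold between AA and AV. C4b was the first of these: its median was 29.6 in YNG, 69.4 in AA and 95.5 in AV, and AA differed from AV by -0.80 ± 0.22 (unadjusted p = 0.000806) while it stayed above YNG. Mt1, a metal-binding metallothionein, had medians of 168, 103 and 128 in YNG, AA and AV, and AA lay below both, by -0.81 against YNG and -0.76 against AV (unadjusted p = 0.00165). Its difference from YNG was -1.51 in series a and -0.079 in series b. Haus1, a spindle protein, and Tecta, a matrix protein, were likewise lower in AA than in either group, by -0.74 and -0.50 against YNG and -0.63 and -0.32 against AV. Pex5, the import receptor of peroxisomes, was higher in AA than in either, by 0.42 against YNG and 0.34 against AV. The unadjusted p against AV was 0.00252 for Haus1, 0.00389 for Tecta and 0.00318 for Pex5. C4b, Mt1, Haus1, Tecta and Pex5 were named because their p against AV was smallest among genes called against YNG. The same AA rats enter both comparisons, so this choice favours small p values and AA values away from both groups. The unadjusted p values against AV therefore only describe the chosen genes. Over all genes the smallest adjusted p between AA and AV was 0.526 in limma.

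Markers of other cell types that a dissection could hold were also counted. None of 8 CA1 pyramidal cell markers, 6 red blood cell markers or the 1 B and plasma cell marker tested passed the test. The summed CA1 markers were 5577 to 21522 in YNG and 5262 to 48968 in AA, highest in rat 4107, so AA was the wider group. Of the CA3 and mossy cell markers 2 of 14 rose (14.3%, against 12.6% of all genes), among them the phosphatase gene Ptpn5 (0.50). Of 8 choroid plexus markers 1 fell, Calml4 (-0.83), 12.5% against 14.1% of all genes. The choroid plexus sum was 276 to 405 in YNG and 166 to 1296 in AA, highest in rat 3985. Among meninges and fibroblast markers 4 of 14 fell (28.6%, against 14.1% of all genes), including Igfbp2, a binding protein for insulin-like growth factors (-0.68). Ependymal markers rose in 2 and fell in 1 of 8 (25% higher, against 12.6% of all genes), led by Dnah5, a motor of cilia (0.86). Their sum was highest in AA rat 3988 (596, against an AA median of 285), whose library held cerebellar transcripts. Without this rat 1 rose and none fell, and without the 6 rats none rose or fell. The part of these cells in the results above was not tested.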

How the data were processed

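Total RNA from the DG was poly(A) selected and sequenced on an Ion instrument. Per the labels and methods the authors aligned reads to rn6 with STAR 2.5.3a in Partek Flow and normalized them by the median ratio, and they tested groups with DESeq2. The deposited values are signal, estimated reads divided by a size factor, and the annotation is not given in the sources used here. The 24694 rows were summed over 18347 gene identifiers. Low values of genes with 1 row were whole multiples of 1 read (tolerance 0.05) in 78.0% to 83.3%, and over all rows in 50.9% to 54.4%, so no count model was used. Genes with a mean of at least 5 (15598) were fitted as log2(value + 1) with limma 3.58.1 (trend) in R 4.3.3, after tests on simulated data. The older rats' groups came from the deposited attributes table, as the labels give only their age.

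Members and gene lists were chosen with earlier results of these data known. Lists were counted by identifier, and their members may share reads with near-identical copies. Named genes were, first, the 10 largest rises and 10 largest falls, taken from genes that passed the adjusted threshold (0.05) and averaged 20 or more in the 21 rats. To these were added the 5 smallest p, the 2 smallest p of each pathway list, the 5 called genes with the smallest p between AA and AV, members of marker lists, and Bcl2, Bcl2l1, Bcl2l2, Mcl1, Cdkn1a, Cdkn2a, C4b, C4a, C3, Fcgr2b, Tgfb1, Cldn5, Eng, Acvrl1 and Id1. List members named beyond these were chosen after their values were seen. Some genes that this rule names are not reported here. Replicates are separate rats. Alternatives covered pseudocounts, filters, scaling, weights, series, single rats and covariates. Promoters came from RefSeq (GRCr8), matched by symbol for 10908 of the genes tested.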

Additional observations from a re-analysis of the deposited data

Results flagged for a closer look

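In YNG, LOC102556337 was highest in rat V5 at 255, far from the next rat (133.8), Pla2g3 was highest in V6 at 33.8 against 18.3 in the next, and Npas4 was highest in V11 at 59.4 against 36.7. A gap of this size is expected by chance in about 1 in 20 groups, and 3 of the 129 genes examined showed it. The 11 AA rats were too many for this test. In the difference between AA and YNG, 4 genes differed between the series by an interaction term in limma. For AABR07016640.1 it was -2.62 in series a and -0.23 in series b (series b minus series a 2.39, adjusted p = 0.00988). Sema3g gave 2.06 and -0.26 (-2.33, adjusted p = 0.000438), Flt1 1.51 and -0.25 (-1.75, adjusted p = 0.00391), and Rgs5 1.54 and -0.16 (-1.69, adjusted p = 0.000355). Over all genes 280 passed the adjusted threshold of this interaction.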

How the results depend on the processing

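The count by unadjusted p (4153) stayed within 1.5 times of itself under most alternatives, including each rat left out in turn (3316 to 5059). It was 7068 with array weights, 1928 in series b only, 2753 with the mitochondrial share as covariate and 1884 without the 6 rats high in neighbouring region transcripts. The count by adjusted p (601) moved more: 387 with no filter, 341 with only the 21 rats fitted, 5564 with array weights, 1300 with series as a term, 1567 in series a only, 1 in series b only, 28 to 2359 without each rat, 167 without AA rat 3988 and with the CA1 list mean as covariate, 63 with the mitochondrial share and 13 without the 6 rats. Fewer rats enter the fits of 1 series and those without rats, and for the others the cause was not tested. The last 3 alternatives were chosen after seeing the data. Upper quartile scaling turned the unadjusted split from 1959 higher and 2194 lower to 2383 and 1838, and the adjusted split from 241 and 360 to 311 and 310. In series b only, the direction turned for Cldn5 (-0.054), Eng (-0.046), Acvrl1 (-0.011), Sema3g (-0.26), Flt1 (-0.25), Rgs5 (-0.16), C1qbp (0.016) and Bmf (-0.0034). The median of 17 of the 47 lists turned there: potassium channels (-0.055), TGF-beta and BMP signaling (-0.046), interferon response (-0.20), antioxidant defence (0.026), mitochondrial ribosomal proteins (0.0046), oligodendrocyte precursor (-0.12), GABA (-0.055), MHC class I (0.11), astrocyte reactivity (-0.036) and lysosome (0.082), and the markers of choroid plexus (-0.34), endothelium (-0.14), pericytes (-0.35), meninges (-0.33), CA1 (-0.079), T and NK cells (0.016) and B cells (-0.15). Tgfb1 ran from -0.15 to 0.0083 without each rat, turning without YNG rat V9, and was 0.15 with the mitochondrial share and 0.037 without the 6 rats, where potassium channels were at -0.055 and -0.015. The mitochondrial share is itself the sum of a list described, so it cannot test that list. No paired analysis was possible because the labels give no shared replicate numbers.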
